A study of Homo sapiens with 27 samples.

Results

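The immunoglobulin lambda genes of REH cells were examined: 92 genes on chromosome 22 with symbols beginning IGLV, IGLJ or IGLC, plus IGLL5, of 60619 genes counted. They were chosen by symbol and chromosome alone, segments and pseudogenes alike. Inside the lambda locus lay 88 of them (73 V, 7 J and 7 C members and IGLL5), and 4 orphons (copies that lie outside the locus) completed the set. REH is a long-established human cell line from an acute leukemia of B-cell precursors. Its cells have the ETV6/RUNX1 fusion gene and no other intact ETV6, which holds for every group, and all libraries come from this line. The cells received medium alone or 10 µM of an LNA GapmeR, an antisense oligonucleotide with locked nucleotides at its ends that directs cleavage of its target RNA, taken up without a transfection reagent and left for 72 h.

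There were 27 stranded RNA-seq libraries in 10 groups. The controls were medium (2 libraries) and NTC, a negative control GapmeR (3 libraries). Each of 4 long non-coding RNAs was targeted with a GapmeR1 and a GapmeR2: lnc-NKX2-3-1 (2 and 3 libraries), lnc-RTN4R-1 (3 and 3), lnc-TIMM21-5 (3 and 3) and lnc-ASTN1-1 (3 and 2). By the methods, replicates were run on different days, and the replicate number is taken to stand for the day. The groups medium and lnc-NKX2-3-1 GapmeR1 have replicates 1 and 2 only, and lnc-ASTN1-1 GapmeR2 has 1 and 3. Libraries held 14627110 to 22750945 counts assigned to genes, of which 2550 to 10513 fell on the lambda members. Of 12 B-cell precursor markers, 11 had a mean of at least 1 CPM (a gene's count scaled to the TMM-adjusted library size), VPREB1 being at 0, as did 3 of 4 plasma cell markers (up to 265.6 CPM), 2 of 4 myeloid (up to 136.4 CPM), 2 of 3 stromal (up to 10.75 CPM), 0 of 4 T cell and 0 of 3 erythroid markers. The target lnc-NKX2-3-1 was at 0.764 ± 0.354 CPM (SD, n = 5) in controls, 0.118 ± 0.0930 (SD, n = 2) with its GapmeR1 and 0.115 ± 0.0998 (SD, n = 3) with its GapmeR2. These rest on 6 to 23 counts per control library and on 0 to 4 with either GapmeR. The fall passed the test with GapmeR1 (log2 fold change -2.58, adjusted p = 0.0168) and was of like size with GapmeR2 (-2.59, adjusted p = 0.913, and 0.00197 with the replicate number as a block).

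A lambda light chain is assembled from separate segments. The RAG recombinase joins a V segment, which encodes most of the antigen-binding domain, to a short J segment by cutting at recombination signal sequences, and splicing then links J to the neighbouring C segment, which encodes the constant domain. Each lambda C segment has its own J segment upstream. Unrearranged V and J-C segments can also be transcribed as germline RNA before or without joining. In B-cell development light chains follow the heavy chain: a precursor first pairs its heavy chain with the surrogate light chain made by VPREB1 and IGLL1, and the kappa locus usually rearranges before the lambda locus. IGLL5 shares its constant exon region with IGLC1.

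The signal beside each V segment, where RAG cuts, is shown for the 4 V genes with a mean of at least 1 CPM. The sequences are from the plus strand of the hg38 reference genome and not from these libraries. Capitals mark the heptamer and the nonamer, which flank a spacer of 23 bases.
IGLV3-21 (chr22:22713200-22713238): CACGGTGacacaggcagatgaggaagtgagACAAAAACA
IGLV2-23 (chr22:22698422-22698460): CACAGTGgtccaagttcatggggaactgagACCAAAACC
IGLV3-10 (chr22:22812282-22812320): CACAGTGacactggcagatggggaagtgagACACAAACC
IGLV4-69 (chr22:22031473-22031511): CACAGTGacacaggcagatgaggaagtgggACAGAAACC
Each is the window that best matched the consensus CACAGTG and ACAAAAACC on the plus strand, where the last base before the heptamer could lie from 40 bases before to 15 bases after the annotated end of the V member. A full heptamer was found in 30 of 37 V genes and in 5 of 36 V pseudogenes of the locus. IGLV3-21, the V gene with the highest level, matched 6 of 7 heptamer bases and 8 of 9 nonamer bases.

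The C segments are near copies of each other, which bears on how their reads can be counted. Bases 61 to 120 of the annotated exon are shown for 5 of them (hg38, plus strand), with capitals where a base differs from IGLC3.
IGLC3 (chr22:22906402-22906461): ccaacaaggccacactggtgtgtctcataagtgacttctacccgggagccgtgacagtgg
IGLC2 (chr22:22901036-22901095): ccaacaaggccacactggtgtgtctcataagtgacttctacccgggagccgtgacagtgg
IGLC7 (chr22:22922654-22922713): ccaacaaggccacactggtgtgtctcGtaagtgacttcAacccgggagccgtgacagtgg
IGLC1 (chr22:22895435-22895494): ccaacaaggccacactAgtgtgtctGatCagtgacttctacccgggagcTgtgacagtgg
IGLC6 (chr22:22919595-22919654): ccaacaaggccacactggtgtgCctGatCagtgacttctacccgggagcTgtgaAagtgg
IGLC2 and IGLC3 were identical at 458 of 462 exonic bases (99.1%) and in the whole of this stretch. Only 52.3% of the 75-base windows of IGLC2 and 54.4% of those of IGLC3 occur once on chromosome 22, against 85.3% for IGLC7, 94.0% for IGLC1 and 100% for IGLC6 and IGLV3-21. Reads with several equally good positions were left out of the gene counts, so the levels of IGLC2 and IGLC3 are uncertain as absolute values.

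The oligonucleotides themselves are shown 5′ to 3′ for the 2 GapmeRs against lnc-NKX2-3-1 and for NTC, since lambda RNA was highest with this GapmeR1, GapmeR2 has the same target and NTC is the control GapmeR.
lnc-NKX2-3-1 GapmeR1: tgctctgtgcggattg
lnc-NKX2-3-1 GapmeR2: ctgatttttagtagtg
NTC: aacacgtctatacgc
The longest run of bases of GapmeR1 complementary to the plus strand of the lambda locus was 11 of 16, as for GapmeR2, and in the exons of the 6 members with the highest levels it was 8 and 7. For NTC these runs were 9 and 5 of 15. The GapmeRs against the other lncRNAs had runs of 10 to 12 bases in the locus and of 6 or 7 in those exons. The longest run in the locus, 12 bases, was that of lnc-TIMM21-5 GapmeR1.

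Lambda RNA in REH cells came almost wholly from a few segments. IGLC3 (ENSG00000211679), a functional C gene, and IGLV3-21 (ENSG00000211662), a V gene 184 kb upstream of IGLC1, together held 78.3 to 86.9% of all lambda counts in a library. With IGLC6, IGLV2-23, IGLC7 and IGLV3-10 the share rose to 96.2 to 98.4%. At the other end, 44 of the 92 members had 0 counts in all 27 libraries and 34 had between 1 and 49 counts in total.

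Divided by exonic length, the mean level over 27 libraries was 207 CPM per kb for IGLC3 and 131 for IGLV3-21. The next levels were 39.3 CPM per kb for IGLC6, 14.9 for IGLV2-23, 13.3 for IGLV3-10 and 11.8 for IGLC7, then 3.25 for IGLV4-69. IGLC6 is annotated as a pseudogene, and its level per kb was below that of IGLC3 and above that of IGLC7, the other functional C gene with a clear level. The order of IGLC3, IGLV3-21, IGLC6 and IGLV2-23 held in the mean of controls as well (176.5, 114, 27.6 and 10.4 CPM per kb), whereas IGLV2-23 (10.4), IGLV3-10 (11.1) and IGLC7 (9.74) lay close together there.

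The other C members were low. IGLC2 had 352 counts over all libraries, IGLC5 208 and IGLC4 31, the last a pseudogene as is IGLC5. IGLC1 and IGLL5 were listed at 0 in every library. IGLL5 exons overlap IGLJ1 and IGLC1 on the same strand, and reads on such overlaps are set aside as ambiguous by the counting, so a 0 does not measure IGLC1 or IGLJ1, which lie within IGLL5 exons. IGLL5 also has exonic bases outside these overlaps, and no read was assigned to them.

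The J members held 46 counts in all. IGLJ6 had 28, IGLJ3 12, IGLJ5 3, IGLJ7 2 and IGLJ4 1, while IGLJ1 and IGLJ2 had 0. These segments are 33 to 176 bases long as annotated, so few reads can fall on them.

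Along the locus the V signal lay mostly on the side of the C genes. The 37 V members nearer to IGLC1 than the median distance of 445 kb held 43.9% of lambda counts, and the 36 farther members 1.13%. Most of the nearer share was IGLV3-21 alone, with 37.5% of lambda counts. A few V members, mostly farther ones, share exonic bases with another gene on the same strand, where reads are set aside as ambiguous. Of the 4 V genes at or above 1 CPM, IGLV2-23, IGLV3-21 and IGLV3-10 lay 198, 184 and 83.6 kb before IGLC1, and IGLV4-69 lay 864 kb before it, at the far end. Annotated V genes had a count more often than V pseudogenes: 28 of 37 genes had at least 1 count, against 7 of 36 pseudogenes of the locus. Among the orphons IGLVIVOR22-1 had 372 counts and IGLCOR22-2 had 3, with IGLCOR22-1 and IGLVIVOR22-2 at 0.

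**Figure D1:**
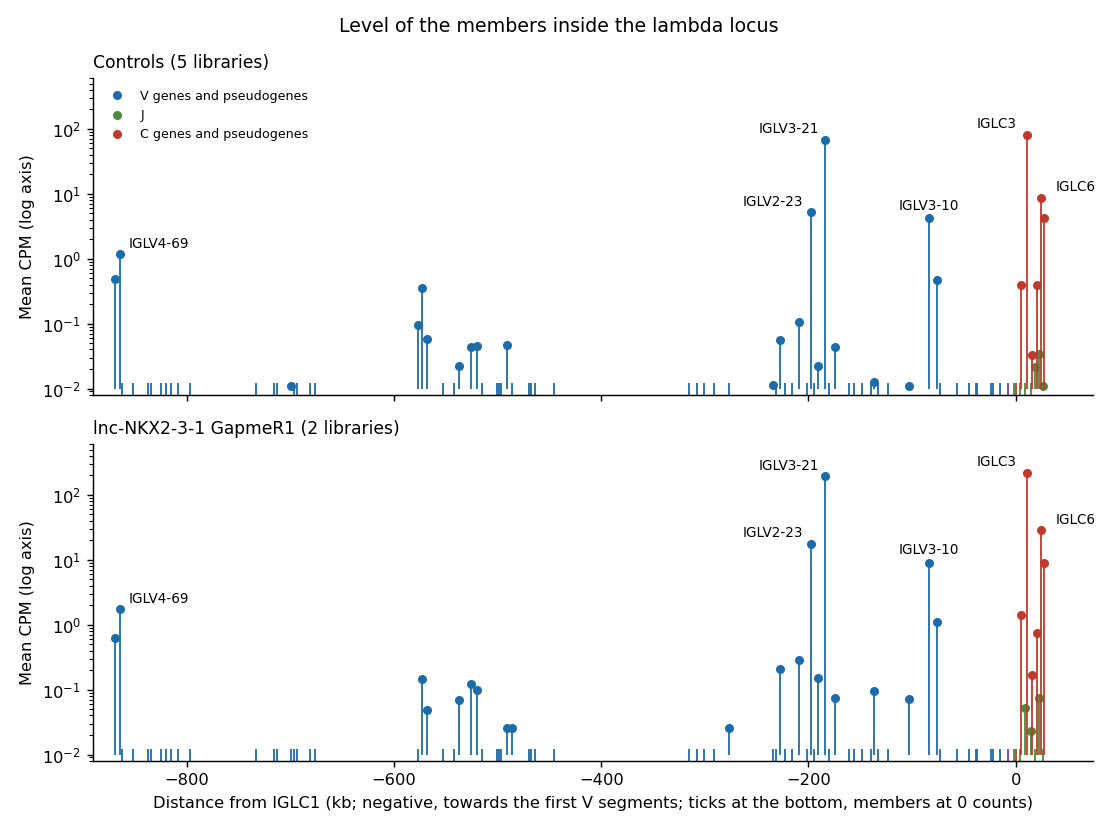
Mean CPM (log axis) of the 88 members inside the lambda locus against distance from IGLC1 in kb, in the 5 control libraries (top) and the 2 lnc-NKX2-3-1 GapmeR1 libraries (bottom), with ticks at the bottom for members at 0. IGLV3-21 and IGLC3 stand above the rest in both panels, and the far V segments stay low apart from IGLV4-69 and its neighbour IGLVI-70.

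Lambda was also the light chain locus with the higher RNA level in these cells. Summed over its 92 members it was at 177 ± 13.7 CPM (SD, n = 5) in controls, whereas the 98 kappa genes summed to 1.02 ± 0.220 and the 166 heavy chain genes to 792 ± 37.7 CPM. The kappa genes were taken by symbol and chromosome and include orphons outside the kappa locus. In bulk RNA, more cells carrying lambda transcripts and more transcripts per cell cannot be told apart.

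The 10 groups differed in lambda RNA. Of the 92 members, 12 had enough counts to be tested across all groups, and 7 of them differed (edgeR quasi-likelihood F test with Benjamini-Hochberg adjustment over all genes), where 16.1% of all 16268 tested genes did. These 7 were IGLC3 (adjusted p = 1.57e-10), IGLC6 (8.63e-09), IGLV2-23 (3.97e-08), IGLV3-21 (3.62e-07), IGLV3-10 (9.77e-05), IGLC7 (0.000217) and IGLC2 (0.00689). IGLV3-9, IGLC5, IGLV4-69, IGLVI-70 and IGLVIVOR22-1 did not pass, with adjusted p from 0.152 to 0.811. With the replicate block IGLV3-9 passed too (adjusted p = 0.047), as did 48.6% of all genes. IGLC2 and IGLC5 did not pass the count filter in the control libraries alone, and without them 6 of 10 members differed.

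Lambda RNA was highest with lnc-NKX2-3-1 GapmeR1. The 92 members summed to 482 and 489 CPM in its 2 libraries, against 159 to 193 CPM in the 5 controls and 148 to 265 CPM in all 25 other libraries. For 7 of the 12 tested members both GapmeR1 libraries lay above all 25 others, where 7.49% of all tested genes did so. IGLC2, which was tested only because it was high in some treated groups, is among the 7. No tested member had both of these libraries below all others. The summed level of kappa genes was 1.78 ± 0.0513 CPM (SD, n = 2) with GapmeR1, also above the controls (0.700 to 1.248 CPM) but low, and that of heavy chain genes was 882 ± 108 CPM, overlapping the controls. Since the kappa sum includes orphons, it does not show whether RNA of the kappa locus itself was higher.

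**Figure D2:**
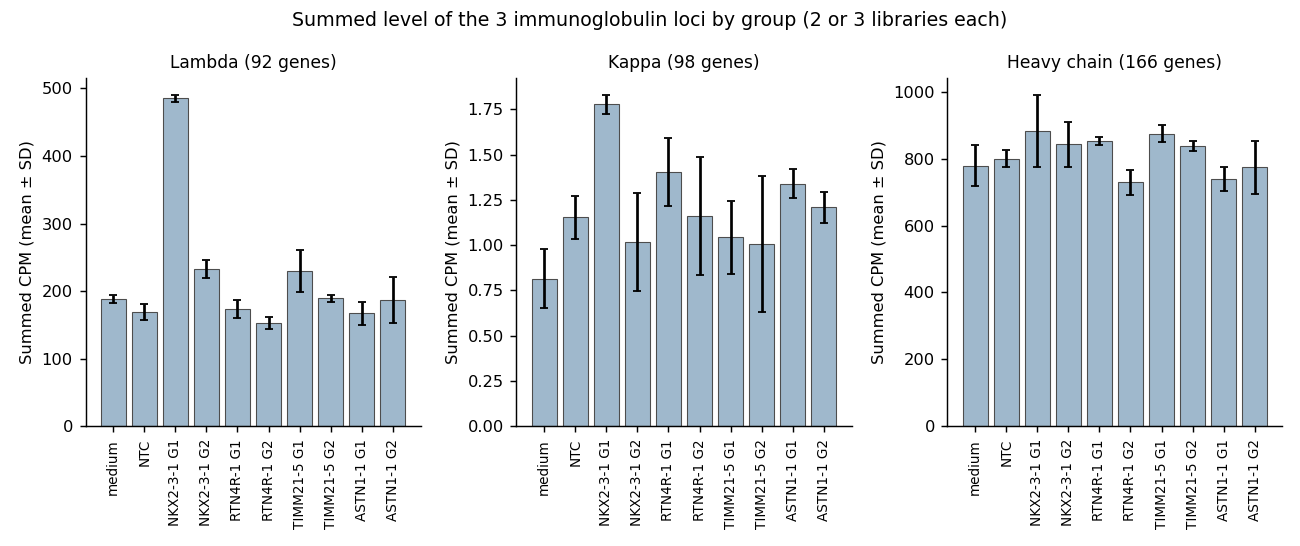
Summed CPM of the lambda, kappa and heavy chain genes by group (bars, mean; error bars, SD over 2 or 3 libraries; axes start at 0 and differ in scale). The lambda and kappa sums include orphons. The mean lambda sum with lnc-NKX2-3-1 GapmeR1 is 485 CPM, against group means from 153 to 233 CPM elsewhere, while the heavy chain means lie between 730 and 882 CPM.

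Against the controls, 8 of 11 tested members were higher with lnc-NKX2-3-1 GapmeR1 and 0 lower. Among all 15402 genes tested, 17.6% changed and 7.41% were higher. IGLC2 is 1 of the 8 and passed the count filter only through the GapmeR1 libraries, which favours a call as higher. Of the 10 members that also passed the filter in the control libraries alone, 7 were higher. Their median log2 fold change was 1.15 and 10 of 10 lay above 0, against a median of 0.00366 over all genes. The largest changes among these 10 were those of IGLV2-23, IGLC6, IGLV3-21 and IGLC3.

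IGLC3 was at 87.0 and 83.6 CPM in medium, at 75.7, 83.6 and 77.8 CPM in NTC, and at 219 and 221 CPM with GapmeR1. The groups were far apart, with every GapmeR1 library above every control. The log2 fold change was 1.44 (SE 0.0697, adjusted p = 3.85e-08), a 2.71-fold higher level.

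IGLV3-21 was at 78.0 and 76.3 CPM in medium, at 64.8, 71.4 and 52.1 CPM in NTC, and at 191 and 195 CPM with GapmeR1. The lowest control was NTC replicate 3, and the groups did not overlap. The log2 fold change of this V gene was 1.5 (SE 0.117, adjusted p = 2.40e-06), close to that of IGLC3.

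IGLC6, the C pseudogene, was at 9.26 and 7.34 CPM in medium, at 8.15, 9.12 and 9.93 CPM in NTC, and at 29.0 and 28.7 CPM with GapmeR1. Both GapmeR1 libraries were above every control, and the log2 fold change was 1.73 (SE 0.114, adjusted p = 5.11e-07).

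IGLV2-23, a V gene of another family that lies next upstream among the V genes above 1 CPM, was at 5.27 and 4.06 CPM in medium, at 5.49, 5.16 and 6.03 CPM in NTC, and at 16.7 and 19.0 CPM with GapmeR1. Its log2 fold change was 1.78 (SE 0.139, adjusted p = 2.07e-06). Here too the groups did not overlap.

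IGLC7 and IGLV3-10 rose by less. IGLC7, the last C gene of the locus, had 3.62 to 4.59 CPM in controls and 9.30 and 8.50 CPM with GapmeR1 (log2 fold change 1.06, SE 0.140, adjusted p = 0.00018). IGLV3-10 had 3.37 to 4.70 CPM in controls and 9.17 and 8.76 CPM with GapmeR1 (1.09, SE 0.152, adjusted p = 0.000286). For both genes the lowest GapmeR1 library lay above the highest control.

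The remaining changed members were low in counts. IGLC2, with 4 to 10 counts per control library and 26 and 31 with GapmeR1, had a log2 fold change of 1.81 (SE 0.334, adjusted p = 0.00231). Its call was lost without GapmeR1 replicate 2 (1.58, adjusted p = 0.0639), and since its sequence nearly equals that of IGLC3 its own change is uncertain. IGLV3-9, a V gene 76.4 kb before IGLC1 with 6 to 11 control counts, had 1.21 (SE 0.318, adjusted p = 0.0192). That call was lost without GapmeR1 replicate 1 (1.13) or replicate 2 (1.27) and with DESeq2 (adjusted p = 0.0763).

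The members that did not pass with GapmeR1 were the pair at the far end of the locus and the orphon. IGLV4-69 had a log2 fold change of 0.545 (SE 0.306, adjusted p = 0.253), IGLVI-70 0.39 (SE 0.415, adjusted p = 0.574) and IGLVIVOR22-1 0.29 (SE 0.434, adjusted p = 0.708). With the replicate number as a block, which the pairing by day allows, IGLV4-69 passed as well (0.76, adjusted p = 0.0268), which made 9 members, where 18.4% of all genes were higher. The 34 members with fewer than 50 counts summed to 23 and 32 counts in the GapmeR1 libraries and to 7 to 14 counts in the controls, and the 7 J members to 2 and 4 against 0 to 4.

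**Figure D3:**
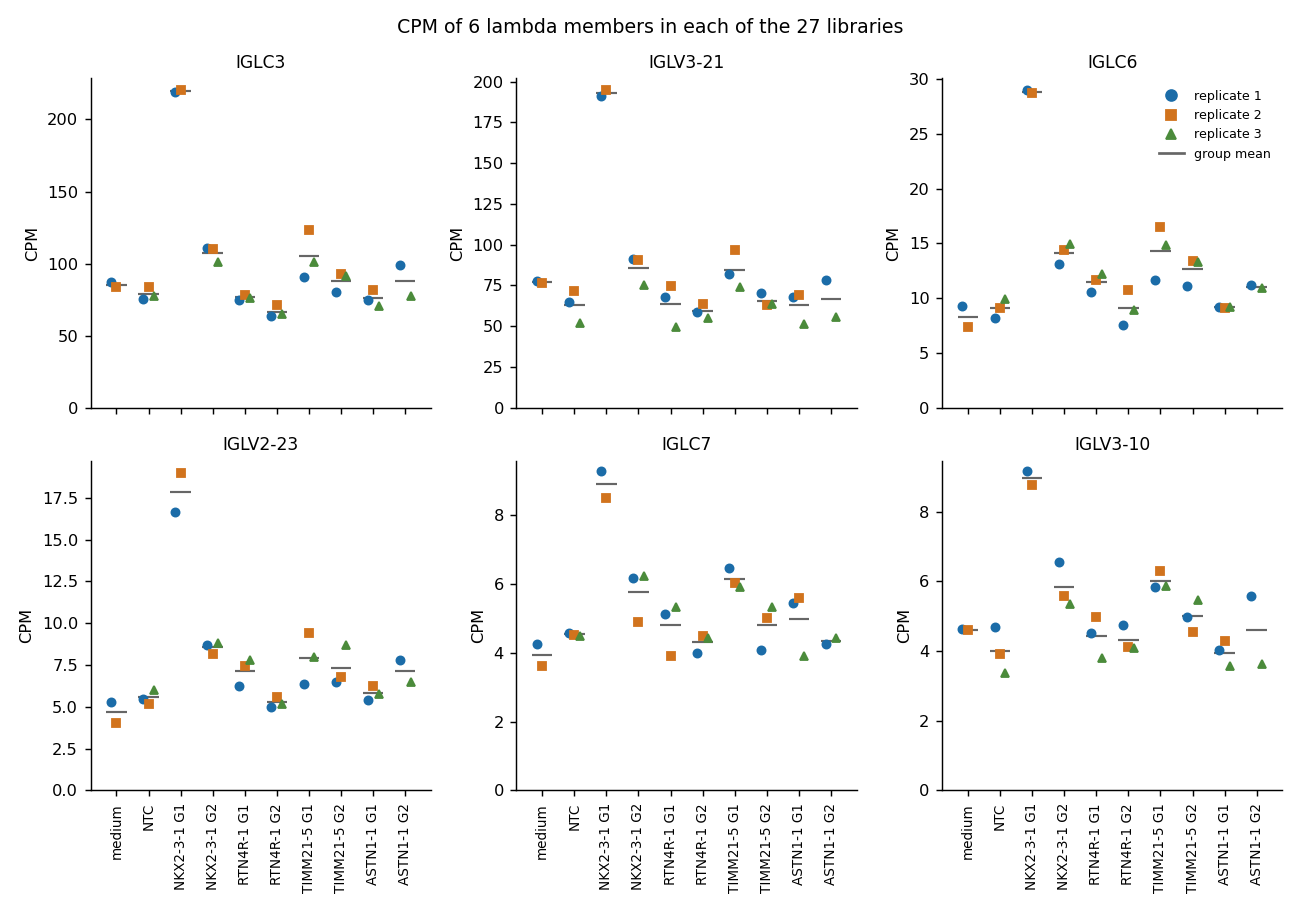
CPM of 6 lambda members in each library by treatment group (points, libraries marked by replicate number; lines, group means; linear axes from 0). Both lnc-NKX2-3-1 GapmeR1 libraries exceed all other libraries in every panel, and for IGLC3 they sit at 219 and 221 CPM.

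Genes around and between the lambda segments were compared on the same contrast. Of 16 neighbouring genes of 22q11, 9 could be tested and 3 were higher with GapmeR1, beside 7.41% of all genes: ZNF280B (log2 fold change 0.59, adjusted p = 0.0017), BCR (0.36, adjusted p = 0.00635), a kinase gene, and GNAZ (0.89, adjusted p = 0.0248), a G protein subunit. ZNF280B lies among the V segments, and BCR and GNAZ lie beyond the C genes. IGLL1, the surrogate light chain gene beyond the C cluster, was at 303 ± 25.2 CPM (SD, n = 5) in controls and 310 ± 14.8 (SD, n = 2) with GapmeR1, a log2 fold change of 0.04 (SE 0.0879, adjusted p = 0.795). VPREB1, which lies between the V segments, had 0 counts in both groups. The median over the 9 tested neighbours was 0.12, against 1.15 for the 10 lambda members and 0.00366 for all genes. PPM1F, a phosphatase gene, was also higher with the replicate block (0.27, adjusted p = 4.08e-05), which made 4 of 9, where 18.4% of all genes were higher.

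Of the other lists, 1 of 8 tested pre-B receptor genes changed, VPREB3, a chaperone-like protein of the pre-B receptor, which fell (-0.81, SE 0.109, adjusted p = 0.000225). Under the replicate block, where 36.4% of all genes changed, 5 of 8 did: SYK (-0.20, adjusted p = 0.000696) and CD79B (-0.19, adjusted p = 0.00145) were also lower, and BLNK (0.14, adjusted p = 0.0215) and IGHM (0.15, adjusted p = 0.0127) higher. Among 3 recombination genes RAG1 was higher (0.40, SE 0.0900, adjusted p = 0.00785), and RAG2 (0.18, adjusted p = 0.201) and DNTT (0.14, adjusted p = 0.283) did not pass, though RAG2 did with the replicate block (0.14, adjusted p = 0.0202). Of 11 transcription factors known at light chain enhancers, 3 were higher and 2 lower, beside 17.6% of all genes changed. The higher were IRF4, which binds both light chain enhancers (0.97, SE 0.0905, adjusted p = 9.32e-06), FOXO1 (0.51, adjusted p = 0.00231) and TCF3 (0.33, adjusted p = 0.0205). The lower were EBF1 (-0.41, adjusted p = 0.00292) and SPIB (-0.77, adjusted p = 0.0078). Under the replicate block 4 were higher and 4 lower, with MEF2C (0.26, adjusted p = 3.9e-05), IKZF1 (adjusted p = 0.0355) and PAX5 (-0.12, adjusted p = 0.0471) added, IKZF1 and PAX5 on the lower side. IRF4 was at 234 and 240 CPM with GapmeR1 against 111 to 143 CPM in controls, so these groups did not overlap. With GapmeR2 of the same lncRNA IRF4 was at 124 to 161 CPM (0.19, adjusted p = 0.913, and 0.15 with adjusted p = 0.0341 with the replicate block). Of 7 heavy chain genes tested, IGHV3-15 rose (0.44, adjusted p = 0.0365) and IGHD fell (-0.51, adjusted p = 0.0147). The only tested gene of the kappa list was an orphon, IGKV1OR2-108, which passed the test as higher. No gene inside the kappa locus could be tested. IGHM and IGHV5-78 (0.33, adjusted p = 0.00728) were higher too under the replicate block.

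Markers of other cell types were set beside these values, in a comparison where 17.6% of all genes changed and 7.41% were higher. Of 4 plasma cell markers 3 were tested, and PRDM1, a factor of plasma cell differentiation, rose with GapmeR1 (2.12, SE 0.349, adjusted p = 0.00144), from 0.439 to 2.82 CPM in controls to 6.38 and 7.79 CPM. SDC1 (-0.06, adjusted p = 0.777) and XBP1 (0.03, adjusted p = 0.861) did not pass, and JCHAIN was at 0 in controls with 1 and 2 counts with GapmeR1. The summed plasma cell list overlapped between the groups (258 to 321 CPM in controls, 283 and 314 CPM with GapmeR1). Of 4 myeloid markers 2 were tested and both rose, MPO (0.84, SE 0.139, adjusted p = 0.00145) and CSF1R (1.11, SE 0.327, adjusted p = 0.0334), with a summed level of 86.2 to 133 CPM in controls and 164 and 197 CPM with GapmeR1. The stromal list was at 18.25 to 23.7 CPM in controls and at 15.2 and 17.5 CPM with GapmeR1, the T cell list was at most 0.430 CPM in both groups, and the erythroid list was at 0. The B-cell precursor list summed to 5620 to 6384 CPM in controls and to 6501 and 6894 CPM with GapmeR1. Its members did not move together: RAG1 was higher and EBF1 lower, and CD79B and PAX5 were lower under the replicate block. With lnc-RTN4R-1 GapmeR1 this list summed to 6362 to 6565 CPM and the lambda members to 160.5 to 187 CPM. With lnc-RTN4R-1 GapmeR2 the myeloid list summed to 294 to 449 CPM and the lambda members to 148 to 164 CPM. The part of these factors and markers in the lambda result was not tested.

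With lnc-NKX2-3-1 GapmeR2 the same members lay above the controls by smaller amounts, and the call depended on the fit. IGLC3 was at 111, 110.3 and 101 CPM, all above the highest control of 87.0 CPM. Without the block, 0 of 11 tested members passed in edgeR, as did 0% of all genes, with 7 members at an unadjusted p under 0.05 and 3 called by DESeq2. Shares of all genes are those of edgeR at an adjusted p under 0.05. Here and in the comparisons below, none is given for counts at an unadjusted p or by DESeq2, so those counts have no background. With the replicate block 6 members passed, all higher, where 1.44% of genes were called higher. They were IGLC3 (log2 fold change 0.41, adjusted p = 3.83e-08 with pairing), IGLC6 (0.67, 6.61e-06), IGLV3-21 (0.38, 1.69e-05), IGLV2-23 (0.70, 8.02e-05), IGLV3-10 (0.50, 0.0233) and IGLC2 (adjusted p = 0.0283). IGLC2 passed the count filter through the treated libraries here too, and without it 5 of 10 passed.

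In that comparison IGLC6 was at 13.1, 14.4 and 14.9 CPM and IGLV2-23 at 8.68, 8.14 and 8.84 CPM, each above every control. IGLV3-21 was at 91.0, 90.5 and 75.3 CPM, and replicate 3 lay within the control range. Without IGLC2 the median log2 fold change of the 10 tested members was 0.416, and 9 of them lay above 0, against a median of 0.00184 over all genes.

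The difference between the 2 GapmeRs of lnc-NKX2-3-1 was tested directly. Of 12 tested members, 6 were higher with GapmeR1 and 0 lower, where 13.0% of genes differed and 3.97% were higher. The log2 difference was 1.17 for IGLV3-21 (SE 0.0972, adjusted p = 5.09e-05), 1.06 for IGLV2-23 (SE 0.129, adjusted p = 0.000551), 1.04 for IGLC3 (SE 0.0811, adjusted p = 3.61e-05) and 1.04 for IGLC6 (SE 0.110, adjusted p = 0.000244). It was 0.63 for IGLC7 (SE 0.164, adjusted p = 0.0322) and 0.62 for IGLV3-10 (SE 0.155, adjusted p = 0.0274). The IGLV3-10 call was lost without GapmeR1 replicate 1 (0.60) or 2 (0.65) or GapmeR2 replicate 2 (0.58), and that of IGLC7 without replicate 1 or 2 of either GapmeR (0.52 to 0.69). With the replicate block IGLV3-9 passed too (1.39, adjusted p = 0.00377), where 21.4% of genes were higher. The target had 0 to 4 counts per library with either GapmeR, too few to compare its level between them.

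When both GapmeRs of lnc-NKX2-3-1 were pooled against the controls, 0 of 11 tested members passed in edgeR, as did 0% of all 14850 genes. There were 7 members at an unadjusted p under 0.05, and DESeq2 called 3, namely IGLV2-23, IGLC6 and IGLC3. The 0% belongs to the adjusted edgeR test and is no background for the counts of 7 and 3. The 5 treated libraries ranged from 217 to 489 CPM in summed lambda level, and those of GapmeR1 stood apart from those of GapmeR2.

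With lnc-TIMM21-5 GapmeR1, lambda RNA was also above the controls in several members. IGLC3 was at 90.8, 123 and 101 CPM, above every control, and IGLC6 was at 11.6, 16.5 and 14.8 CPM, likewise. In edgeR 0 of 10 tested members passed, with 6 at an unadjusted p under 0.05, 1 called by DESeq2 (IGLC6), and 0.0790% of all genes called. With the replicate block 6 passed, all higher, where 1.44% of genes were called higher.

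Those 6 were IGLC6 (log2 fold change 0.69, adjusted p = 9.76e-05 with pairing), IGLV3-21 (0.35, 0.00189), IGLV2-23 (0.59, 0.00865), IGLC3 (0.37, 0.0118), IGLV3-10 (0.53, 0.014) and IGLC7 (0.52, 0.0148). IGLV3-21 was at 81.8, 97.0 and 74.2 CPM, and its replicate 3 was within the control range. The call of IGLC6 was also made without the block when NTC replicate 3 was left out, which brought the count to 1.

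lnc-TIMM21-5 GapmeR2 gave smaller differences. In edgeR 0 of 9 tested members passed, with 2 at an unadjusted p under 0.05, 0 by DESeq2 and 0.0593% of all genes called. With the block 1 passed, IGLC6 (0.51, adjusted p = 0.00704), where 0.0396% of genes were higher. IGLC6 was at 11.1, 13.4 and 13.3 CPM, above the highest control of 9.93 CPM, while IGLV3-21 at 70.3, 63.2 and 63.9 CPM and IGLC3 at 80.4, 93.1 and 91.3 CPM overlapped the controls.

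Both lnc-TIMM21-5 GapmeRs together gave 0 of 10 members in edgeR, with 7 at an unadjusted p under 0.05, 1 by DESeq2 and 0.00665% of all genes called. With the block IGLC6 (0.60, adjusted p = 7.17e-05) and IGLV2-23 (0.52, adjusted p = 0.00544) passed, where 0.732% of genes were higher. Between GapmeR1 and GapmeR2 of this lncRNA 0 of 11 members differed in edgeR, with 4 at an unadjusted p under 0.05, 0 by DESeq2 and 0.0784% of genes called. With the block IGLC3 (0.24, adjusted p = 0.013) and IGLV3-21 (0.35, adjusted p = 0.00347) were higher with GapmeR1, as were 0.248% of genes.

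With lnc-RTN4R-1 GapmeR2 lambda RNA was lower in 1 member. IGLC3 was at 63.4, 71.0 and 65.1 CPM, below every control, with a log2 fold change of -0.29 (SE 0.0708, adjusted p = 0.0248), and the other 8 tested members did not pass. Among all genes 6.62% changed and 3.85% were lower. This call was lost with NTC alone as controls (-0.26, adjusted p = 0.135). It was also lost without medium replicate 1 (-0.27), NTC replicate 2 (-0.29), or replicate 1 (-0.27) or 3 (-0.29) of this GapmeR. Without NTC replicate 3 the count was 2.

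lnc-RTN4R-1 GapmeR1 left IGLC3 at 75.03, 78.2 and 76.4 CPM, with replicate 1 just below the lowest control (75.7 CPM) and the others within the control range. In edgeR 0 of 9 tested members passed, with 3 at an unadjusted p under 0.05, 0 by DESeq2 and 1.59% of all genes called. With the block IGLC6 (0.37, adjusted p = 0.00945) and IGLV2-23 (0.44, adjusted p = 0.0139) passed as higher, where 5.97% of genes were higher. IGLC6 was at 10.6, 11.6 and 12.2 CPM and IGLV2-23 at 6.25, 7.44 and 7.78 CPM, each above the highest control.

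For both lnc-RTN4R-1 GapmeRs together, edgeR called 0 of 9 members, with 1 at an unadjusted p under 0.05, 0 by DESeq2 and 0.476% of genes called. Between the 2 GapmeRs 0 of 10 members differed in edgeR, with 4 at an unadjusted p under 0.05, 0 by DESeq2 and 5.92% of genes called. With the block IGLC3 (0.21, adjusted p = 0.00224), IGLV2-23 (0.44, adjusted p = 0.00705) and IGLC6 (0.34, adjusted p = 0.0131) were higher with GapmeR1, where 15.6% of genes were.

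lnc-ASTN1-1 GapmeRs gave no call against the controls in any fit run. For GapmeR1 0 of 10 members passed in edgeR, with 0 at an unadjusted p under 0.05, 0 by DESeq2 and 0.718% of all genes called, and IGLC3 was at 75.1, 82.0 and 70.7 CPM. For GapmeR2 0 of 11 passed, with 3 at an unadjusted p under 0.05, 0 by DESeq2 and 0.0130% of genes called, and IGLC3 was at 99.0 and 77.4 CPM in its 2 libraries. Together they gave 0 of 8, with 1 at an unadjusted p under 0.05, 0 by DESeq2 and 0.0136% of genes called.

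Between the 2 lnc-ASTN1-1 GapmeRs 0 of 11 members differed in edgeR, with 1 at an unadjusted p under 0.05, 0 by DESeq2 and 0.146% of genes called. With the block IGLC3 was lower with GapmeR1 (-0.27, adjusted p = 0.00282), where 2.91% of genes were lower. Between NTC and medium 0 of 10 members passed in edgeR, with 1 at an unadjusted p under 0.05, 0 by DESeq2 and 0% of genes called. All comparisons with controls share the same 5 control libraries, so their values are not independent of each other.

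**Figure D4:**
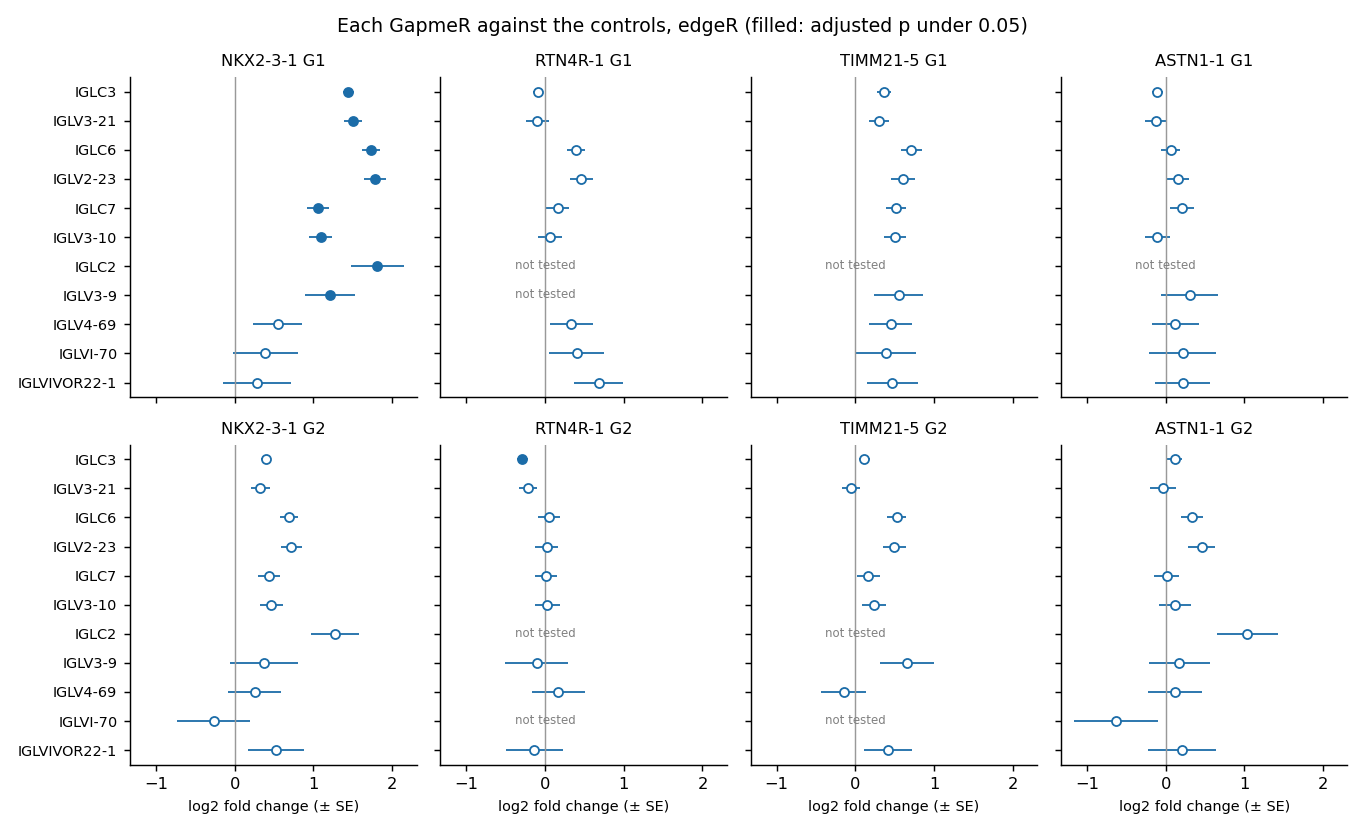
Log2 fold change against the 5 controls (horizontal axis; bars, SE; edgeR without the block) of the 9 to 11 lambda members tested for each of the 8 GapmeRs, with untested members marked and G1 and G2 for GapmeR1 and GapmeR2. Filled points passed the test: 8 with lnc-NKX2-3-1 GapmeR1 and 1, IGLC3 on the lower side, with lnc-RTN4R-1 GapmeR2.

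Ratios between members were taken within each library. IGLV3-21 to IGLC3 was 0.838 ± 0.0977 (SD, n = 5) in controls and 0.877 ± 0.00859 (SD, n = 2) with lnc-NKX2-3-1 GapmeR1, which overlap. The count ratio of IGLV2-23 to IGLC6 was 0.594 ± 0.0491 (SD, n = 5) in controls and 0.618 ± 0.0599 (SD, n = 2) with lnc-NKX2-3-1 GapmeR1, and it ranged from 0.507 to 0.698 over all libraries. The ratio of IGLC6 to IGLC3 was 0.108 ± 0.0141 (SD, n = 5) in controls and 0.131 ± 0.00137 (SD, n = 2) with that GapmeR. Its highest group mean, 0.15 ± 0.00976 (SD, n = 3), was with lnc-RTN4R-1 GapmeR1, where IGLC3 was not raised. IGLC7 to IGLC3 was 0.0530 ± 0.00698 in controls and 0.0405 ± 0.00276 with lnc-NKX2-3-1 GapmeR1. These ratios are descriptions over few libraries and were not tested.

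The ratio of the leading V gene to the leading C gene varied with the replicate number, which stands for the day. IGLV3-21 to IGLC3 had a median of 0.885 in 10 libraries of replicate 1, 0.855 in 9 of replicate 2 and 0.721 in 8 of replicate 3. In 7 of the 8 groups with a replicate 3 that library had the lowest ratio of its group. The ratio of IGLV2-23 to IGLV3-21 was highest in replicate 3 in 8 of 8 such groups, with medians of 0.0861, 0.0900 and 0.116. Since lnc-NKX2-3-1 GapmeR1 has no replicate 3, its comparison was repeated without the replicate 3 library of the controls, and the 8 members passed there as well.

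**Figure D5:**
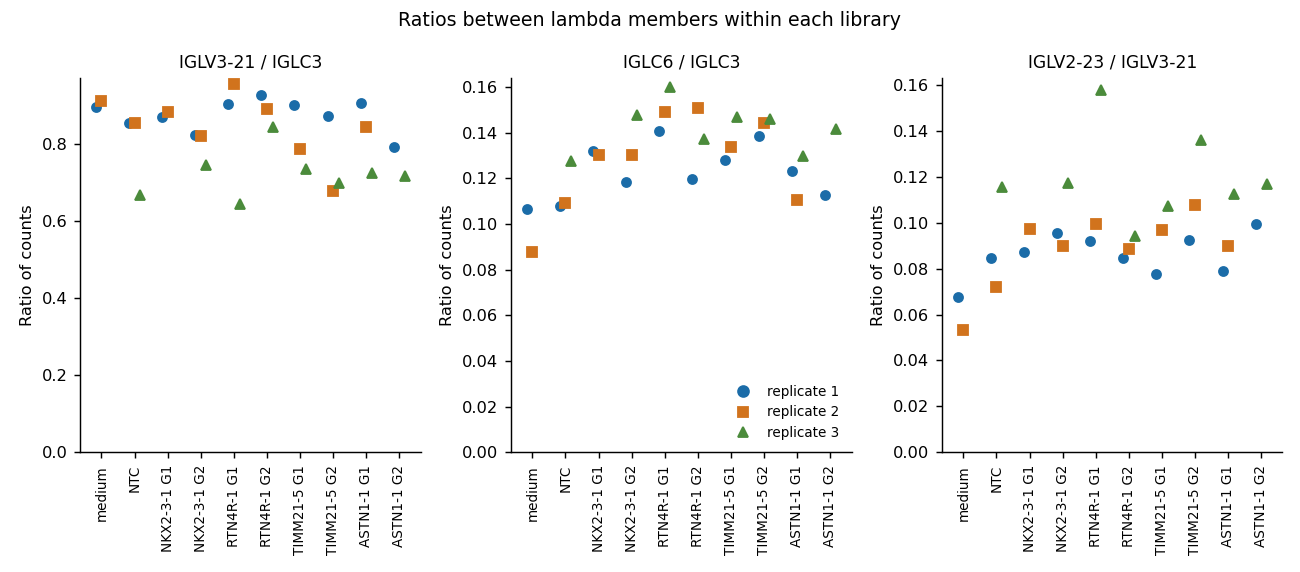
Ratio of counts between pairs of lambda members in each library by treatment group (points marked by replicate number; linear axes from 0). Replicate 3 has the lowest IGLV3-21 to IGLC3 ratio in 7 of 8 groups and the highest IGLV2-23 to IGLV3-21 ratio in 8 of 8.

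The strand of the reads fitted the annotation. Over all libraries 109008 counts lay on the annotated strand of the members and 241 on the other (0.221%), against 4.73% over all genes. The exception was the orphon IGLVIVOR22-2, with 113 antisense and 0 sense counts. Another annotated gene overlaps it on the same strand, which can set aside sense reads on the shared bases as ambiguous. Its unstranded count was 113 too, so the antisense reads fell on bases counted for it alone, where no sense read was assigned.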

How the data were processed

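RNA of 27 REH cultures was sequenced; per the labels the libraries were ribodepleted and stranded, whereas the methods describe poly-A selection. The authors aligned reads with STAR to hg38 and deposited whole-number gene counts for 60619 Ensembl identifiers, unstranded and for each strand. The annotation release is not given in the sources used here. The column that counts the sense strand (4) was used. Symbols and positions came from GENCODE 44 (56434 identifiers matched). The members and lists were chosen with earlier results of these data known. CPM used TMM library sizes.

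Each comparison was fitted on its own libraries with edgeR 4.0.16 (R 4.3.3; filterByExpr, minimum count 10; quasi-likelihood test; Benjamini-Hochberg adjustment over all genes tested, threshold 0.05), tested on simulated data. Controls were medium and NTC together. Alternatives were DESeq2 1.42.0, RLE scaling, no filter, unstranded counts, a fit of all samples, NTC alone as controls, each library left out, replicate 3 left out, and the replicate number as a block. The methods state that replicates were run on different days. Deviations from the group means correlated at 0.263 on average over 109 pairs of libraries sharing a number and at -0.130 over 218 that did not. Such deviations cancel within a group, so the negative average follows largely from the positive one. Intervals are SD or SE; library depth (14627110 to 22750945 counts) limits what can be read from members with 3 counts or fewer per library. The replicate number was taken as the day. Named V members have a mean of at least 1 CPM; per comparison the 5 changed members with the largest log2 fold change are named, with all C and J members and IGLL5. IGLV3-9, IGLVI-70 and IGLVIVOR22-1 are named outside that rule, after their values were seen.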

Additional observations from a re-analysis of the deposited data

Results flagged for a closer look

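The effects of the 2 lnc-NKX2-3-1 GapmeRs on lambda members differed in a direct test (edgeR, adjusted over all genes). The log2 differences, GapmeR1 over GapmeR2, were 1.17 for IGLV3-21 (adjusted p = 5.09e-05), 1.06 for IGLV2-23 (0.000551), 1.04 for IGLC3 (3.61e-05), 1.04 for IGLC6 (0.000244), 0.63 for IGLC7 (0.0322) and 0.619 for IGLV3-10 (0.0274). GapmeR1 has 2 libraries, and neither is from replicate 3.

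A library stood apart from its set in 2 of 60 sets of 4 to 10 libraries, which is no more often than the about 1 in 20 that chance gives. Each of these 2 sets pools GapmeR1 and GapmeR2 of a lncRNA and is not a single treatment group. IGLVI-70, a V pseudogene, was at 0.905 CPM in lnc-TIMM21-5 GapmeR1 replicate 2, the highest of 6 libraries of that lncRNA, whose lowest was at 0.316. IGLV4-69 was at 0.725 CPM in lnc-NKX2-3-1 GapmeR2 replicate 2, the lowest of 5 libraries, whose highest was at 1.87.

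Antisense counts, which no comparison above used, were above every control with lnc-NKX2-3-1 GapmeR1 at IGLV3-21 (mean 0.250 CPM, controls at most 0.110) and at IGLC3 (mean 0.293 CPM, controls at most 0.161). These rest on 3 to 7 and on 6 counts per library. As a share of both strands they were 0.126% and 0.133%, and 0.0821% and 0.110% in the controls.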

How the results depend on the processing

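The 8 calls for lnc-NKX2-3-1 GapmeR1 and the 6 between its GapmeRs stayed within 6 to 8 and 4 to 6 over leave-one-out fits, and no named log2 fold change reversed in any of 223 alternatives (207 on the same side of the threshold, 16 no longer past it). Elsewhere the count of members called was unstable. With the replicate block, which pairs libraries by day, it went from 0 to 6 for lnc-NKX2-3-1 GapmeR2, 2 for lnc-RTN4R-1 GapmeR1, 6 and 1 for lnc-TIMM21-5 GapmeR1 and GapmeR2, 2 for both together, and 3, 2 and 1 between the GapmeRs of lnc-RTN4R-1, lnc-TIMM21-5 and lnc-ASTN1-1. In a fit of all samples it was 2 for lnc-NKX2-3-1 GapmeR2, 7 for both its GapmeRs, and 2 for lnc-TIMM21-5 GapmeR1 and for both together. With the block in that fit it was 7, 7, 6 and 4 in the same order, 2 for lnc-RTN4R-1 GapmeR1, 1 for both lnc-RTN4R-1 GapmeRs, 2 for lnc-TIMM21-5 GapmeR2, and 2 and 1 between the GapmeRs of lnc-RTN4R-1 and lnc-TIMM21-5. DESeq2 called 3 for lnc-NKX2-3-1 GapmeR2, 3 for both its GapmeRs, and 1 each for lnc-TIMM21-5 GapmeR1 and both together. Without the low-count filter the counts were 3 for lnc-NKX2-3-1 GapmeR2, 3 for lnc-TIMM21-5 GapmeR1, 2 for both together and 1 between them. For the fits of all samples, DESeq2 and the unfiltered fit, the share of all genes called is not given here. Their counts show how far the calls move with the fit and have no background to be read against. With NTC alone as controls lnc-RTN4R-1 GapmeR2 had 0. Leaving out each library in turn gave 0 to 2 for lnc-RTN4R-1 GapmeR2, and 0 to 1 for lnc-TIMM21-5 GapmeR1 and for both its GapmeRs (1 without GapmeR2 replicate 1). The block changed the call of no member named with lnc-NKX2-3-1 GapmeR1 other than IGLV4-69. The cause of these changes was not tested. RLE scaling and unstranded counts moved no count of calls by over 1.5 times.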
